A study of Mus musculus with 6 samples.

Results

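Intercalated disc and gap junction genes were followed across 6 mouse arrays, 3 of cardiac progenitor cells (CPC) and 3 of cardiomyocytes (Ctl). The 10 genes were Gja1, Gjc1, Cdh2, Dsp, Pkp2, Jup, Dsg2, Dsc2, Ctnna3 and Tjp1. They were found by their gene symbol in the array annotation and were read by 29 of the 45037 probe sets tested, or as 10 of 20677 genes where each gene was read once. A probe set is a group of short probes on a mouse whole-genome Affymetrix GeneChip that together measure a transcript, and 8 of the 10 genes had several. CPC were progenitor cells that arose from dedifferentiated, dividing cardiomyocytes of bi-transgenic mice in prolonged culture, and Ctl were cardiomyocytes freshly isolated from adult bi-transgenic mice. The labels name neither the transgenes nor an age beyond adult. In the bi-transgenic strains of the study, a tamoxifen-inducible Cre under the αMHC (Myh6) promoter switches on a GFP reporter in cardiomyocytes, and which strain and whether tamoxifen was given for these arrays was not given in the sources used here. Single cells were captured in a microfluidic device and their cDNA was amplified. CPC came from culture and Ctl did not, so time in culture and the change of cell state cannot be told apart. The sources used here do not say how many cells, animals or cultures stand behind each array, so every p-value speaks of array-to-array spread alone, part of which may be technical. Fewer cells that express a gene and less of its RNA in each cell cannot be told apart either.

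The intercalated disc joins cardiomyocytes end to end. Its fascia adherens anchors the actin filaments of the sarcomere through N-cadherin and the catenins, its desmosomes anchor the desmin filaments through desmosomal cadherins, plakophilin, plakoglobin and desmoplakin, and its gap junctions pass current between cells through connexin channels. In the adult heart these structures are intermingled, and in people inherited defects of the desmosomal genes cause arrhythmogenic cardiomyopathy. The comparison asked which of these genes differed between CPC and freshly isolated adult cardiomyocytes.

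The promoters of Gja1 and Dsp are shown because Gja1 had the widest spread among the CPC arrays and Dsp the largest difference of the 10 genes. They come from the mouse RefSeq annotation (GRCm38.p6), in which 5 of the 10 genes could be shown, and each runs from 250 bases before to 50 bases after the gene's start. Gja1 lies on the plus strand at chr10:56377050-56377349 and Dsp on the plus strand at chr13:38151044-38151343. Capitals mark matches on either strand to TGANTCA, the letters bound by AP-1 factors, GGGCGG, the GC box, and CAGGTG, an E-box letter string, and none of these overlap.
Gja1: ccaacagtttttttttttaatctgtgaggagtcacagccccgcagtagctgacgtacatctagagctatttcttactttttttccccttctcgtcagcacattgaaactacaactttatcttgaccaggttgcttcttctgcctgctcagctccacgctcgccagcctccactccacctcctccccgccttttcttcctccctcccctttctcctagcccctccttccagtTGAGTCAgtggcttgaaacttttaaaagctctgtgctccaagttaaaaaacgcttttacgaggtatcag
Dsp: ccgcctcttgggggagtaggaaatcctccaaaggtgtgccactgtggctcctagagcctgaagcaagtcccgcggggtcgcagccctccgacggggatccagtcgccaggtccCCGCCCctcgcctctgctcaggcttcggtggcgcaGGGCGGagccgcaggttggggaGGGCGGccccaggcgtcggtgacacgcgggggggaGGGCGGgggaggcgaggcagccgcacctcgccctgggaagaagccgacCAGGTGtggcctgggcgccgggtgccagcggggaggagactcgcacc
The Gja1 window held 1 AP-1 match, beginning 19 bases before the start, with 47.7% G and C and 8 CpG. The Dsp window held 4 GC boxes and 1 CAGGTG, with 73% G and C and 27 CpG. Of 32851 mouse promoter windows of 300 bases, 7.81% held the AP-1 letters, 35.7% the GC box and 20.2% CAGGTG. These matches describe the letters only, and no binding was measured.

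The arrays had median log2 intensities of 7.32 to 7.47. Correlations over all probe sets were 0.79 to 0.86 among the CPC arrays, 0.93 to 0.97 among the Ctl arrays and 0.68 to 0.81 between the groups. CPC 3 stood apart from CPC 1 and CPC 2 on the second principal component (21.3% of the variance), at −119 against 77.4 and 60.7, and results that rest on it are given with and without it. No detection calls came with the values, so 6.55, the highest lower quartile among the 6 arrays, was taken as the background level, and a fold change against arrays at or below it is given as a lower bound. The 3 Ctl arrays carried high levels of all 8 cardiomyocyte markers, and all 8 were lower in CPC, with log2 differences between −7.03 (Tnni3) and −5.12 (Actn2), with a summed level of 10.19 to 10.59 in CPC and 16.69 to 16.74 in Ctl and with Actc1 at background in CPC.

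Junction genes were lower in CPC wherever a difference passed the test. Of the 29 probe sets, 16 were lower in CPC, none was higher, and 13 did not pass an adjusted p of 0.05 (limma, Benjamini-Hochberg over all probe sets). Among all probe sets, 4.38% were lower and 1.06% higher. Read once each, by the probe set with the highest mean, 5 of the 10 genes were lower (Dsp, Pkp2, Ctnna3, Dsg2 and Gjc1) and none was higher, while 4.47% of all genes were lower and 1.15% higher. The median log2 difference was −1.89 over the 10 genes and 0.19 over all genes. At an unadjusted p under 0.05, 23 of the 29 probe sets were lower and none was higher, while 10.7% of all probe sets were lower and 9.69% higher.

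In 25 of the 29 probe sets, the 3 CPC arrays lay below all 3 Ctl arrays, which held for 11.8% of all probe sets. In none did they lie above them, against 19.7% of all probe sets. The mean of the 10 genes was 8.67, 8.30 and 8.74 on CPC 1, CPC 2 and CPC 3, and 10.67, 10.69 and 10.78 on Ctl 1, Ctl 2 and Ctl 3. Leaving out Ctl 1 or Ctl 3 left 10 lower probe sets and 2 lower genes, and leaving out any 1 CPC array left 3 lower genes. Of the 16 lower probe sets, 10, from 6 genes, passed the test whichever array was left out.

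**Figure D1:**
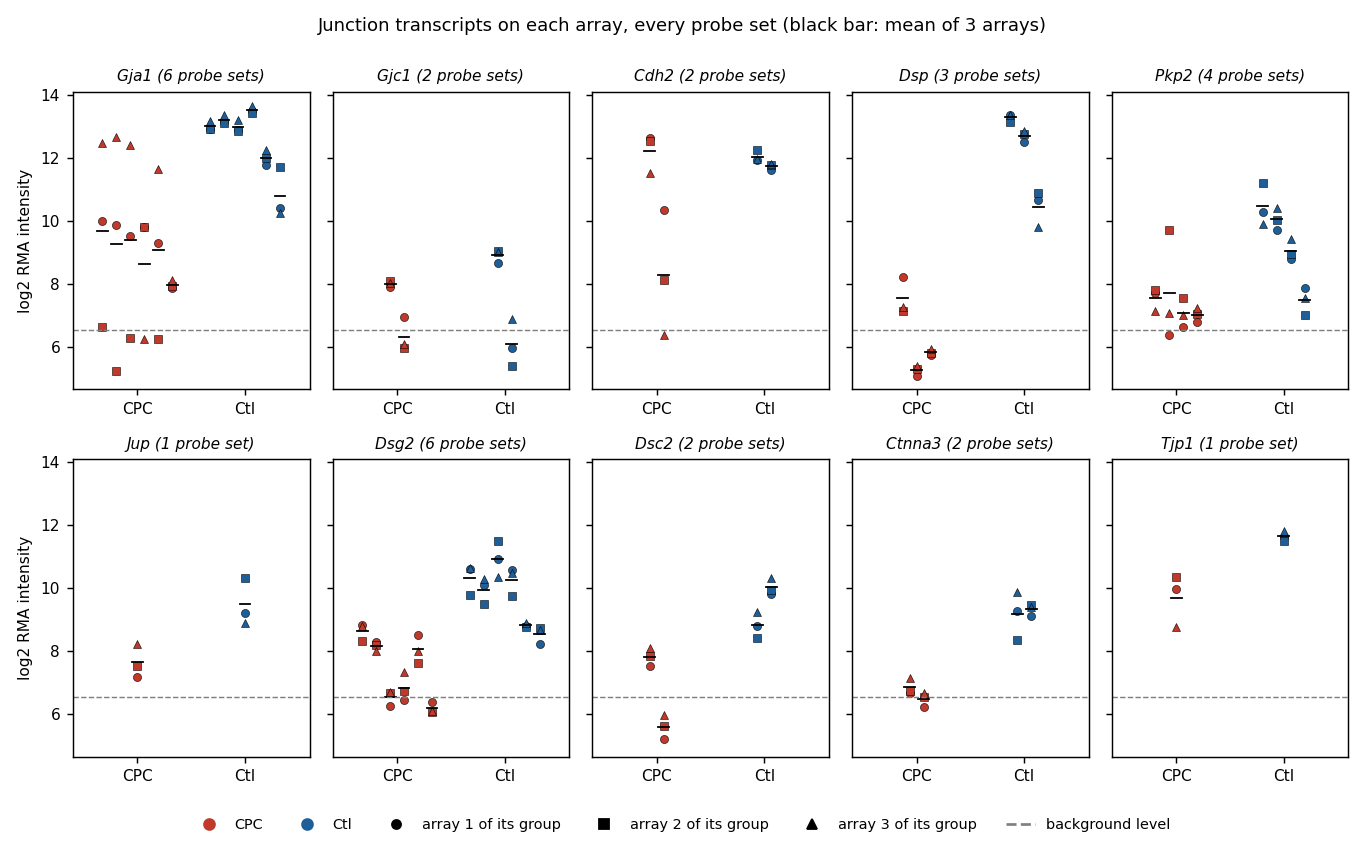
Log2 RMA intensity of all 29 probe sets of the 10 junction genes on each of the 3 CPC arrays (red) and 3 Ctl arrays (blue), 1 panel per gene and 1 column of points per probe set, with the group mean as a black bar and the background level of 6.55 as a dashed line. The Ctl points of Dsp lie at 9.82 to 13.36 and its CPC points at 5.09 to 8.23, and the CPC points of Gja1 spread between 5.25 and 12.66.

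Gja1 encodes connexin Cx43, the main gap junction protein of working ventricular myocardium. All 6 of its probe sets were below Ctl on every CPC array, but the CPC arrays disagreed with each other. On probe set 1438650_x_at, which had the highest mean, CPC 1, CPC 2 and CPC 3 read 9.99, 6.63 and 12.45, and Ctl 1, Ctl 2 and Ctl 3 read 12.92, 12.90 and 13.16. CPC 2 was thus just above the background level while CPC 3 came close to the Ctl arrays. The log2 difference of −3.31 ± 1.37 (SE) had a 95% interval of −6.64 to 0.02 and did not pass the test (adjusted p = 0.247).

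The other 3 Gja1 probe sets whose names end in _x_at ranked the CPC arrays in the same way. Such probe sets hold probes that can also match other transcripts. Their readings were 9.30 to 9.86 on CPC 1, 5.25 to 6.29 on CPC 2 and 11.66 to 12.66 on CPC 3, against 11.77 to 13.36 over the Ctl arrays, and their adjusted p-values were 0.236 to 0.271. Without CPC 3, the differences of all 4 were −4.23 to −5.64 and none passed (adjusted p 0.052 to 0.097), and without CPC 2 they were −1.52 to −2.01.

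Both remaining Gja1 probe sets were lower in CPC. On 1415800_at, CPC 1, CPC 2 and CPC 3 read 9.82, 9.79 and 6.25, and Ctl 1, Ctl 2 and Ctl 3 read 13.49, 13.42 and 13.65. Here CPC 3 was the lowest array and the one at background, the opposite of its place on the _x_at probe sets. The difference was −4.90 ± 0.97, at least 27.8-fold lower (adjusted p = 0.0426), and −3.71 without CPC 3 (adjusted p = 0.00124). The call was lost when any 1 Ctl array was left out (adjusted p 0.111 to 0.159).

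On the Gja1 probe set 1415801_at the CPC arrays read 7.87, 7.93 and 8.12 and the Ctl arrays 10.40, 11.72 and 10.25. The CPC arrays were nearly equal, and the Ctl arrays varied more. This probe set was 7.06-fold lower in CPC (log2 difference −2.82 ± 0.40, adjusted p = 0.0134) and passed the test without each array in turn. All 6 probe sets are annotated to the same RefSeq transcript, so the files give no transcript difference to set beside their disagreement, and probe cross-matching was not tested.

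Gjc1 encodes connexin Cx45, which is found mainly in the conduction system and the embryonic heart. On 1449094_at, CPC 1, CPC 2 and CPC 3 read 7.90, 8.08 and 8.02, and Ctl 1, Ctl 2 and Ctl 3 read 8.68, 9.05 and 9.00. The groups did not overlap, and the difference, 1.88-fold lower in CPC, was the smallest of any gene that passed (−0.91 ± 0.17, adjusted p = 0.0349). It did not pass without any 1 of the 6 arrays (adjusted p 0.0566 to 0.152). The second Gjc1 probe set, 1447787_x_at, had both group means below the background level and gives no fold change.

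**Figure D2:**
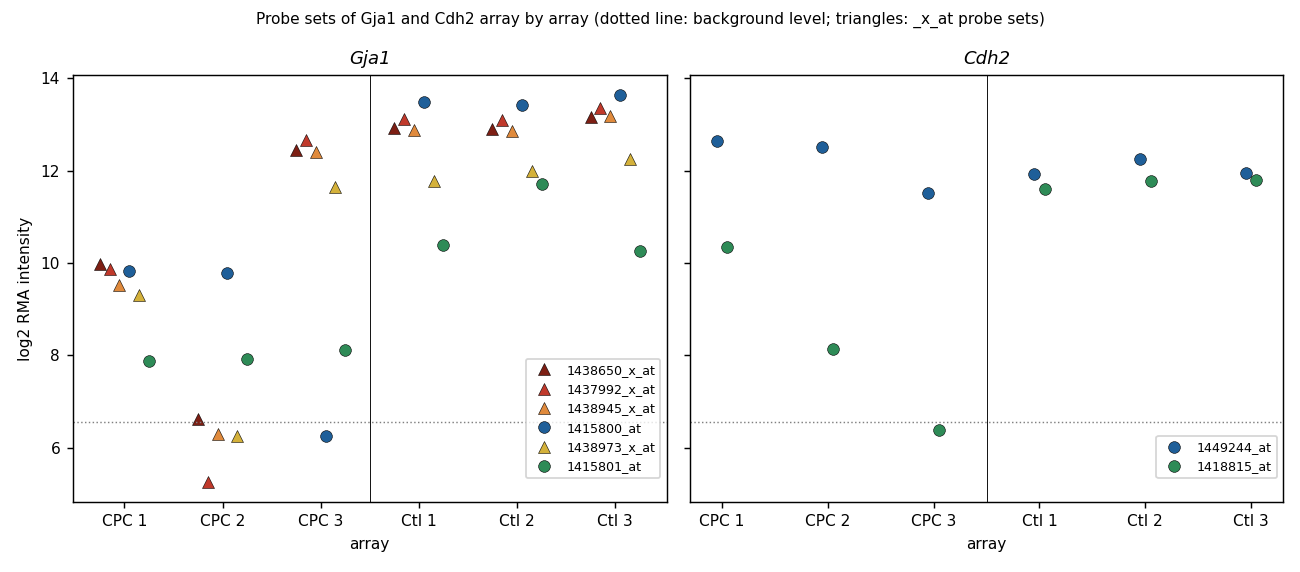
Log2 RMA intensity of the 6 Gja1 and 2 Cdh2 probe sets on each array, with triangles for probe sets named _x_at, circles for the others and a dotted line at the background level of 6.55. On CPC 3 the Gja1 triangles lie at 11.66 to 12.66 while 1415800_at reads 6.25, and on CPC 2 the order is turned round.

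Cdh2 encodes N-cadherin, the transmembrane adhesion molecule of the fascia adherens. Its higher probe set, 1449244_at, read 12.64, 12.52 and 11.52 on CPC 1, CPC 2 and CPC 3, and 11.92, 12.24 and 11.95 on Ctl 1, Ctl 2 and Ctl 3. CPC 1 and CPC 2 were above all Ctl arrays and CPC 3 below them, so the groups overlapped. The difference of 0.19 had a 95% interval of −0.60 to 0.98 (adjusted p = 0.734), and it was −0.02 without CPC 1 and 0.54 without CPC 3, neither past the test.

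The other Cdh2 probe set, 1418815_at, read 10.34, 8.14 and 6.39 in CPC and 11.61, 11.77 and 11.80 in Ctl. All CPC arrays were lower than Ctl, and CPC 3 was at background. The difference of −3.44 (95% interval −5.71 to −1.17) did not pass with all arrays (adjusted p = 0.111) and passed only without CPC 1, at −4.46 (adjusted p = 0.0125). Without CPC 3 the difference was −2.49 (adjusted p = 0.123). The intervals of both probe sets do not overlap, and the 2 probe sets of this gene therefore gave different answers.

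Ctnna3 encodes αT-catenin, a catenin abundant in heart that ties both cadherin and plakophilin-2 complexes to actin. Both of its probe sets were lower in CPC. On 1441193_at the CPC arrays read 6.68, 6.75 and 7.14, close to background, and the Ctl arrays 9.28, 8.35 and 9.86, a 4.96-fold difference (−2.31 ± 0.40, adjusted p = 0.0260). That call was lost on leaving out any array other than Ctl 2 (adjusted p 0.0519 to 0.109). On 1441560_at the CPC arrays read 6.22, 6.56 and 6.68 and the Ctl arrays 9.11, 9.47 and 9.39, at least 6.62-fold lower in CPC (adjusted p = 0.000911), and this one passed without each array in turn.

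Jup encodes plakoglobin, the catenin shared by fascia adherens and desmosome. Its only probe set read 7.20, 7.52 and 8.22 on CPC 1, CPC 2 and CPC 3, and 9.23, 10.33 and 8.91 on Ctl 1, Ctl 2 and Ctl 3. The groups did not overlap, but the difference of −1.84 (95% interval −2.92 to −0.76) did not pass over all probe sets (adjusted p = 0.0810), nor without any 1 array.

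Dsp encodes desmoplakin, the plakin that links the desmosomal plaque to desmin. It had the largest difference of the 10 genes in these fits, and all 3 of its probe sets were lower in CPC. On 1435493_at, CPC 1, CPC 2 and CPC 3 read 8.23, 7.16 and 7.26, and Ctl 1, Ctl 2 and Ctl 3 read 13.35, 13.13 and 13.36. The lowest Ctl array was far above the highest CPC array, and the level was 53.0-fold lower in CPC (−5.73 ± 0.31, adjusted p = 0.000428).

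On the other Dsp probe sets every CPC array was below the background level. With 1435494_s_at the CPC arrays read 5.09, 5.30 and 5.42 and the Ctl arrays 12.49, 12.74 and 12.86, at least 70.7-fold lower in CPC (adjusted p = 0.000133). With 1427610_at they read 5.76, 5.83 and 5.95 in CPC and 10.65, 10.88 and 9.82 in Ctl, at least 14.9-fold lower (adjusted p = 0.000707). All 3 passed the test without each array in turn.

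Pkp2 encodes plakophilin-2, the armadillo protein that clusters desmosomal cadherins with desmoplakin. On 1429183_at the CPC arrays read 7.73, 7.81 and 7.15 and the Ctl arrays 10.29, 11.21 and 9.90. The CPC arrays lay together and below every Ctl array, 7.49-fold lower (−2.91 ± 0.38, adjusted p = 0.00949), with or without each array. On 1420259_at the CPC arrays read 6.64, 7.56 and 7.03 and the Ctl arrays 8.78, 8.95 and 9.44, 3.95-fold lower in CPC (adjusted p = 0.0161), although leaving out any 1 Ctl array lost the call (adjusted p 0.0505 to 0.0668).

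The 2 other Pkp2 probe sets did not pass. On 1449799_s_at CPC 2 read 9.72, equal at this precision to Ctl 1 at 9.72, while CPC 1 and CPC 3 read 6.37 and 7.09 and Ctl 2 and Ctl 3 read 10.04 and 10.42. The difference of −2.33 (adjusted p = 0.202) became −3.33 without CPC 2 and then passed (adjusted p = 0.00707). The dim probe set 1460511_at differed by −0.46 (95% interval −1.10 to 0.18).

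Dsg2 and Dsc2 encode desmoglein-2 and desmocollin-2, the desmosomal cadherins of the heart. All 6 Dsg2 probe sets had every CPC array below every Ctl array, and 5 of them were lower in CPC. The largest difference was on 1426153_a_at, where the CPC arrays read 6.28, 6.68 and 6.71 and the Ctl arrays 10.91, 11.48 and 10.35, at least 19.2-fold lower in CPC (adjusted p = 0.00107). The CPC arrays were thus near background, as they were on 1439476_at (at least 10.6-fold lower) and 1425619_s_at (at least 4.01-fold lower), and these 3 passed without each array in turn.

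The 2 Dsg2 probe sets with the highest means over the 6 arrays gave smaller differences. On 1449740_s_at the CPC arrays read 8.83, 8.34 and 8.80 and the Ctl arrays 10.60, 9.78 and 10.63, 3.20-fold lower in CPC (adjusted p = 0.0266). On 1449741_at they read 8.30, 8.21 and 8.01 in CPC and 10.10, 9.48 and 10.29 in Ctl, 3.45-fold lower (adjusted p = 0.0119). Both calls were lost without Ctl 1 or without Ctl 3, at adjusted p-values of 0.113 and 0.113 for the first and 0.0626 and 0.0513 for the second. The differences were then −1.55 and −1.53 for the first and −1.71 and −1.62 for the second. The first call was also lost without CPC 2 or CPC 3 (adjusted p 0.0712 and 0.0550). The last probe set, 1460380_at, differed by −0.76 (95% interval −1.36 to −0.16, adjusted p = 0.164) and passed only without CPC 1 (adjusted p = 0.0439).

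Dsc2 was split in a like way between its 2 probe sets. On 1426911_at the CPC arrays read 5.22, 5.64 and 5.99, below background, and the Ctl arrays 9.82, 9.95 and 10.34, at least 11.2-fold lower in CPC (−4.42 ± 0.26, adjusted p = 0.000527) with or without each array. On 1421156_a_at, which had the higher mean, the CPC arrays read 7.52, 7.84 and 8.10 and the Ctl arrays 8.81, 8.43 and 9.25. The groups did not overlap here either, but the difference of −1.01 (95% interval −1.66 to −0.36) did not pass (adjusted p = 0.104). Neither interval holds the other probe set's difference.

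Tjp1 encodes ZO-1, the scaffold protein that binds Cx43 at the edge of gap junction plaques. Its only probe set read 9.96, 10.35 and 8.77 on CPC 1, CPC 2 and CPC 3, and 11.63, 11.50 and 11.80 on Ctl 1, Ctl 2 and Ctl 3. Every CPC array was below every Ctl array and CPC 3 was lowest. The difference of −1.95 (95% interval −2.95 to −0.95) missed the threshold with all arrays (adjusted p = 0.0533) and passed without CPC 3 (adjusted p = 0.0186) or without CPC 2 (adjusted p = 0.0362).

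**Figure D3:**
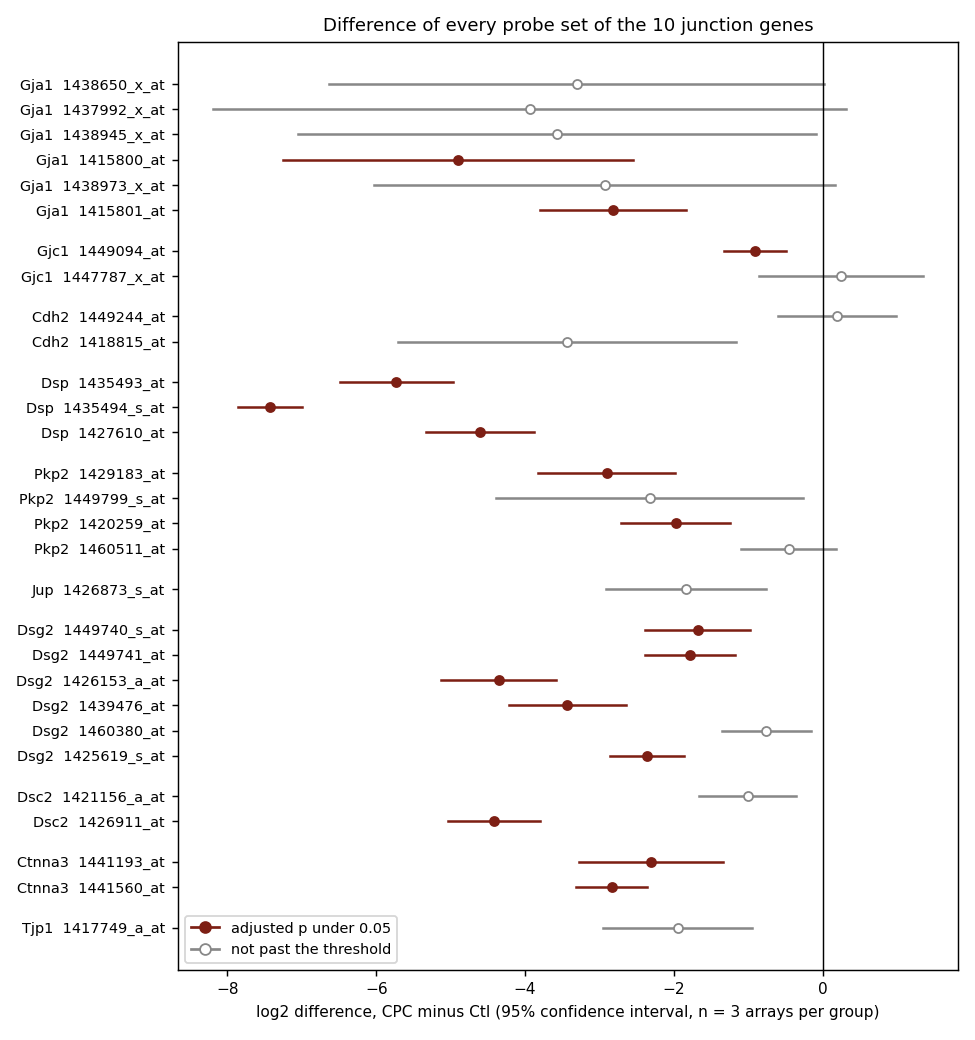
Log2 difference, CPC minus Ctl, of all 29 probe sets of the 10 genes with 95% intervals from limma, filled where the adjusted p was under 0.05. All filled points lie left of 0, between −7.43 for a Dsp probe set and −0.91 for Gjc1, and the widest intervals are those of 5 Gja1 probe sets, Cdh2 1418815_at and the Pkp2 probe set 1449799_s_at.

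Over the whole set, 7 of the 10 genes had at least 1 probe set lower in CPC, and Cdh2, Jup and Tjp1 had none. This count favours genes with many probe sets, such as Gja1 and Dsg2 with 6 each, over Jup and Tjp1 with 1 each. The share of all genes with at least 1 lower probe set was not counted. In Dsp and Ctnna3 every probe set was lower. The median SD of the 29 probe sets was 0.44 over the CPC arrays and 0.28 over the Ctl arrays, and the CPC arrays were the more variable in 15 of the 29. The widest spread was that of Gja1, whose 4 _x_at probe sets had SDs of 2.71 to 3.74 in CPC and 0.14 to 0.24 in Ctl.

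Lists of related junction genes, each gene read once, were set beside the 10 genes. Of the 18 other connexin and pannexin genes measured, none passed in either direction (limma; unadjusted, 2 of the full list of 20 were higher and 1 lower at p under 0.05), and their median difference was 0.33. Over all genes, 10.2% were lower and 11% higher at that unadjusted p. Gja4, another connexin gene, was closest among those above Ctl, at 8.45, 8.47 and 8.80 in CPC and 8.02, 8.06 and 7.82 in Ctl (0.61, adjusted p = 0.124). Gjc1 was thus the only one of the 20 measured channel genes that passed on this reading.

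Of the 13 further adherens junction genes, none passed and their median difference was −0.01 (limma; without adjustment 0 of the full list of 16 were higher and 4 lower at p under 0.05). Ctnnal1, which encodes α-catulin, had the smallest p of the 13, at 8.10, 7.91 and 8.08 in CPC and 9.74, 8.93 and 8.74 in Ctl. Its groups did not overlap (−1.11, adjusted p = 0.0962). Ctnnb1, β-catenin, read 12.87, 12.69 and 10.66 in CPC and 13.19, 13.09 and 13.62 in Ctl (−1.23, adjusted p = 0.303). Ctnna1, the widely expressed αE-catenin, read 12.31, 12.02 and 9.48 in CPC and 13.32, 13.35 and 13.37 in Ctl (−2.08, adjusted p = 0.194). For both, as for Tjp1, CPC 3 was the lowest array. Without CPC 3, Ctnna1 passed as the 1 lower gene of the full list (−1.18, adjusted p = 0.0183), and Ctnna3 did not pass there. Ctnnb1 was then at −0.52 and did not pass.

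In the desmosome list 5 of 13 measured genes were lower and none higher, with a median difference of −1.68. Over all genes, 4.47% were lower and 1.15% higher. Without adjustment, 8 of the 13 were lower and 0 higher at p under 0.05 (limma). Among the 8 genes of this list outside the 10 genes, 2 were lower and the median was 0.08. That median rests partly on Pkp1, Dsg1a and Dsc1, whose means were below background in both groups. Pkp4 was below Ctl on every CPC array but did not pass (−2.75, adjusted p = 0.203). The 2 lower genes were Perp and Des, beside Dsp, Pkp2 and Dsg2. Perp, a tetraspan protein of desmosomes, read 5.57, 5.31 and 5.67 in CPC, below background, and 10.62, 11.38 and 10.48 in Ctl, at least 19.4-fold lower (adjusted p = 0.000384). Des, the desmin of the filaments that desmosomes anchor, averaged 7.91 ± 0.27 in CPC and 10.47 ± 0.52 in Ctl (SD, n = 3 each), with no overlap, 5.90-fold lower (adjusted p = 0.00713). Leaving out 1 array left 4 to 5 lower genes in this list.

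The tight junction and ZO family list had no gene past the test among 18 (limma; without adjustment 3 were higher and 3 lower at p under 0.05), and Tjp1 had its smallest p. No gene passed among 18 other cadherins (limma; without adjustment 2 were higher and 0 lower at p under 0.05), whose median was 0.27. In the tight junction and ZO family list, leaving out CPC 1 gave 1 lower gene (Jam2, limma, adjusted p = 0.00212). Leaving out CPC 2 gave 1 there too (Tjp1). Leaving out CPC 3 gave 2 lower genes in that list (Tjp1 and Cxadr) and 2 higher cadherins (Cdh11 and Fat1). Cdh11, a cadherin of mesenchymal cells, had the smallest p there, at 7.69, 9.05 and 6.53 in CPC and 5.62, 5.55 and 5.35 in Ctl, all below background there, at least 2.30-fold above Ctl by the means (adjusted p = 0.110).

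Of 19 genes for other proteins found at the disc, 9 were lower in CPC and none higher, with a median difference of −2.28. Over all genes, 4.47% were lower and 1.15% higher, with a median of 0.19. Without adjustment, 9 of the 19 were lower and 1 higher at p under 0.05 (limma). The largest differences were those of Ldb3 (−5.57), the Z-disc protein cypher, and Csrp3 (−5.20), the muscle LIM protein, followed by Tmem65 (−3.92) and Popdc2 (−3.82). Ldb3 read 6.60, 6.97 and 7.31 in CPC and 12.62, 12.32 and 12.65 in Ctl, with no overlap (adjusted p = 0.000214). Fhl2, Popdc3, Kcnj2, Ank3 and Nrap were the others that passed. The Ank3 call was lost on leaving out any array other than CPC 1 (limma, adjusted p up to 0.178). The Kcnj2 call was lost without Ctl 2 or without Ctl 3 (adjusted p up to 0.0831). Leaving out 1 array left 7 to 10 lower genes in this list. Some of the 9 lower ones, among them Ldb3 and Csrp3, are also parts of the sarcomere.

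**Figure D4:**
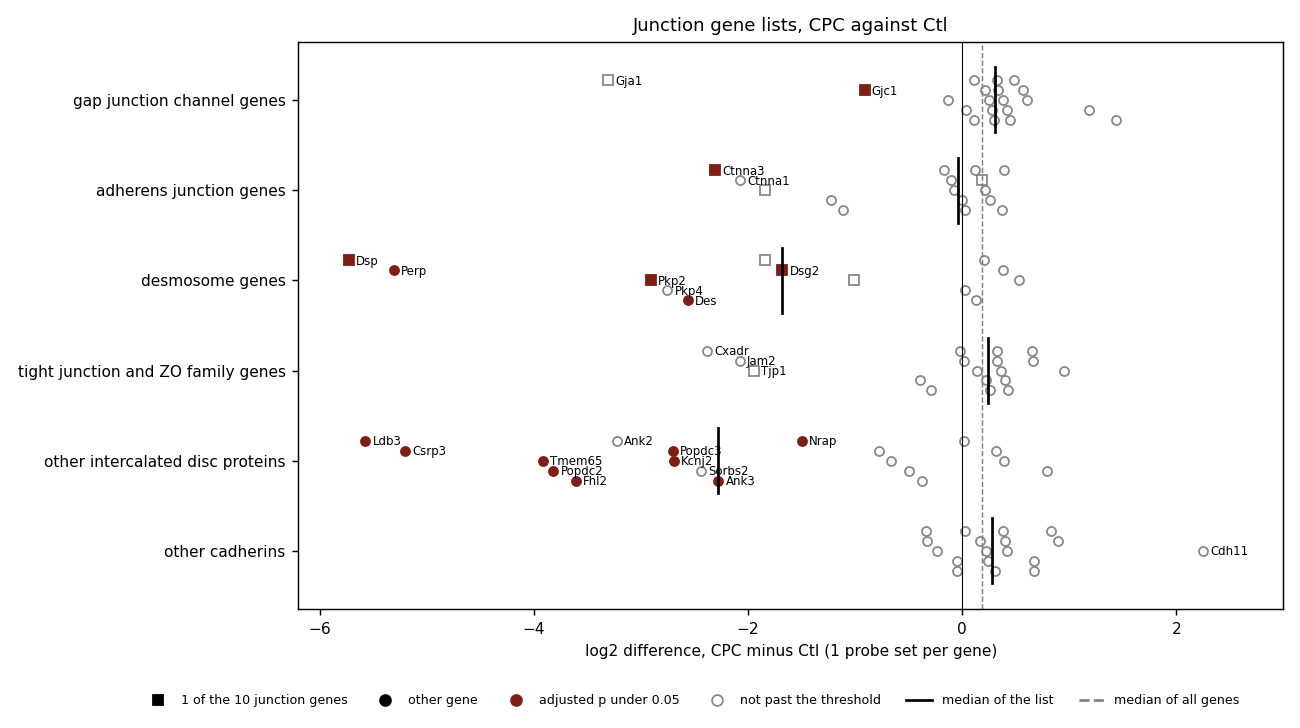
Log2 difference, CPC minus Ctl, of each measured gene in 6 junction lists, with squares for the 10 genes, filled symbols for an adjusted p under 0.05, a black line at each list's median and a dashed line at the median of all genes, 0.19. Filled symbols stand in the desmosome list and the list of other disc proteins, with Gjc1 and Ctnna3 the only ones elsewhere.

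Markers of other cell types were read on the same arrays. Among 9 fibroblast markers, Col1a1 and Col1a2 were higher in CPC (3.33 and 2.87), none was lower, and the summed level was 13.20 to 13.40 in CPC and 10.99 to 12.34 in Ctl, with Lum at background in both groups and Tcf21 in Ctl. The Col1a2 call was lost without CPC 1, CPC 3, Ctl 1 or Ctl 2, each in turn (adjusted p up to 0.122), which left 1 higher marker, Col1a1. None of 7 endothelial markers passed (summed level 10.20 to 10.48 in CPC and 10.13 to 11.65 in Ctl, Tie1 at background in CPC), and none of 8 epithelial and mesothelial markers (10.90 to 11.17 in CPC and 10.64 to 10.73 in Ctl), with Cdh1 and Msln at background in Ctl. None of 6 macrophage and leukocyte markers passed (10.20 to 10.32 in CPC and 9.77 to 9.91 in Ctl), with Adgre1 and Cd14 at background in both groups and C1qa in Ctl. Of 7 smooth muscle and pericyte markers, Rgs5 was lower in CPC (−3.59), and the summed level was 12.11 to 13.23 in CPC and 11.54 to 13.24 in Ctl, where Cnn1 was at background. The Rgs5 call was lost on leaving out any array other than Ctl 2 (adjusted p up to 0.126), and leaving out CPC 1, CPC 2 or CPC 3 gave 1 higher marker each (Acta2, Pdgfrb and Tagln in that order). Leaving out 1 array also gave 1 lower endothelial marker (Tek, without Ctl 2) and 1 higher epithelial marker (Krt19, without CPC 1). The part of these markers in the junction results was not tested.

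The control probe sets along Actb differed, 3′ minus 5′, by 0.14 ± 0.20 in CPC and −0.60 ± 0.23 in Ctl (SD, n = 3 each, exact permutation p = 0.1, two-sided, the smallest that 3 against 3 allows). Those along Gapdh differed by 2.72 ± 0.74 in CPC and 2.04 ± 0.23 in Ctl (exact permutation p = 0.3). Where along each transcript the junction probe sets lie was not analysed here, and the part of this difference in their levels was not tested.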

How the data were processed

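The study placed CPC and Ctl samples on mouse whole-genome GeneChips, 1 array per sample, and the labels gave the groups. The authors deposited log2 intensities made with RMA, which corrects background, equalizes the arrays' distributions by quantiles and summarises each probe set, and Partek was named too, with versions not given in the sources used here. They also deposited their own comparison, a signed fold change (held here as a score), a p-value and a step-up adjusted p-value, and none of these was used. With 3 arrays a group, precision is limited.

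Of 45101 probe sets, 64 Affymetrix controls were left out and 45037 tested with limma 3.58.1 in R 4.3.3 (lmFit and eBayes, two-sided), with Benjamini-Hochberg adjustment over all of them and a threshold of 0.05. Outdated symbols were updated by gene identifier for 3174 of the 38011 probe sets naming 1 gene. A probe set with an array of the lower group at or below 6.55 was given a bound on its fold change, for which every array below that level was set to it. Scripts were tested on simulated data.

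The members and lists were chosen with earlier results of these data known. All probe sets of the 10 genes were named, and from each list the largest changes past the threshold or the smallest p. Gja4, Cxadr, Fat1, Ctnnb1, Ctnna1, Ctnnal1, the markers whose calls changed on leaving out an array and the last 5 disc proteins were named after their values were seen, as were the promoter motifs. The same holds for Jam2, Pkp1, Pkp4, Dsg1a and Dsc1. The labels do not say whether a shared replicate number pairs CPC with Ctl arrays, and the main fit was not paired. A total of 17 alternatives were run.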

Additional observations from a re-analysis of the deposited data

How the results depend on the processing

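Of the 5 lower genes and 16 lower probe sets among the 10 junction genes, centring the arrays left 5 and 15, an intensity trend 4 and 15, a log2 difference of at least 1 left 4 and 15, and the brighter part of the probe sets 6 and 16. Array weights gave CPC 2 a weight of 5.92, CPC 1 one of 0.322 and CPC 3 one of 0.231, so the CPC side rested mostly on CPC 2. With these weights there were 9 lower genes and 1 higher (Cdh2, at 0.51), 26 lower probe sets and 1 higher, and 6597 lower and 9271 higher among all. Weights per group gave 3 lower genes. Without moderation of the variance there were 1 lower gene, 8 lower probe sets, and 629 lower and 154 higher among all. An adjusted p of 0.01 left 2 lower genes, 9 lower probe sets, and 911 lower and 169 higher among all, against 1972 and 478. The mean of a gene's probe sets gave 8 lower genes, with Cdh2 at −1.62 (adjusted p = 0.160), and leaving out probe sets named _a_at, _s_at or _x_at gave 7 of the 8 genes that remained, since Jup and Tjp1 had no others. The share of all genes lower under either setting was not counted, so neither count can be set against it. Leaving out 1 array at a time gave 2 to 4 lower genes, 10 to 16 lower probe sets and, among all, 1042 to 2329 lower and 179 to 1027 higher, and moved the Cdh2 difference between −0.0157 (without CPC 1) and 0.54 (without CPC 3). With the replicate number as a block, 4 genes and 13 probe sets were lower (Gjc1 was lost, adjusted p = 0.111), and 1256 lower and 251 higher among all. Same-numbered arrays had correlations of −0.05, −0.01 and −0.11 in their deviations from the group means. With 3 arrays per group this cannot decide whether the numbers pair the samples, and the labels do not say. In none of the alternatives apart from array weights was a junction gene or probe set higher in CPC. With 3 arrays per group, what passed depended on spread as well as size, and Gjc1 at −0.91 passed near the threshold (limma, adjusted p = 0.0349). The level of 6.55 was a chosen cut, the fits used values below it unchanged, and how far such values can be ranked was not tested.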
